A study of Mus musculus with 5 samples.

Results

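Ribosomal protein genes and genes of the mitochondrial respiratory chain were described in 4 peak lists from mouse neural stem cells (NSC) and brain tumour stem cells (BTSC). Members were the protein-coding RefSeq genes whose symbols follow the naming of cytosolic ribosomal proteins (Rpl or Rps with a number and at most 1 letter of a, l, x or y, and Rplp0 to Rplp2) or of complexes I, III and IV (Nduf with a final number, Cox4 to Cox8, and Uqcr). The rule gave 80 ribosomal and 73 respiratory genes, 153 in all, of 21887 protein-coding genes. Membership was decided by the symbol alone. Rpsa, Fau and other ribosome genes with different symbols fall outside the rule, whereas assembly factors named Ndufaf and several paralogs restricted to muscle or testis fall inside it.

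The study profiled chromatin by immunoprecipitation and sequencing with 1 library per group. TLX, the orphan nuclear receptor encoded by Nr2e1, was precipitated with an antibody against the TY1 tag from NSC or BTSC that carried a retroviral TLX-3xTY1, so these libraries report introduced and not endogenous TLX. H3K27ac, the acetylated form of lysine 27 on histone H3 that is found where promoters and enhancers are in use, was profiled in NSC and in BTSC that had not been transduced. The growth text of the labels names primary neural stem cells for all samples and gives no further origin for BTSC; a control from cells with the empty vector MSCV-neo and no antibody makes up the 5 samples and has no peak list used here. The lists held 7458 TLX peaks in NSC, 1436 TLX peaks in BTSC, 31266 H3K27ac peaks in NSC and 31597 in BTSC. The labels and files state no read numbers; depth is therefore unknown, and a gene without a peak is one where the caller found none with the reads at hand. H3K27ac lay at the ends of 6 of 8 neural stem cell marker genes in either culture, against 52.2% of all protein-coding genes in NSC and 51.7% in BTSC. It lay at 4 of 6 neuron markers in NSC and 1 of 6 in BTSC. For oligodendrocyte markers the counts were 0 of 4 in NSC and 1 of 4 in BTSC, and in both cultures 0 of 5 microglia and 0 of 4 endothelial markers had it. The neuron markers in NSC had low folds (the authors' enrichment over background), from 2.39 at Dcx to 3.06 at Elavl3. The median over all genes with a peak was 9.64. These small counts do not set the cultures apart by cell type. No group was replicated, so the cultures are compared without a test. Intervals are exact Clopper-Pearson intervals at 95% over genes, or over promoters for sequence features, and they cover counting error only.

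Cytosolic ribosomes are built from a small and a large subunit, whose proteins are needed in near equal numbers and are made in large amounts by every growing cell. Many of their mRNAs begin with a run of pyrimidines, the terminal oligopyrimidine tract, through which their translation responds to growth signals. The respiratory chain passes electrons from NADH through complex I to ubiquinone, through complex III to cytochrome c, and through complex IV to oxygen. Most of its subunits are encoded in the nucleus, and neural stem cells are known to rely less on respiration than the neurons they give rise to.

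Sequences around some annotated starts are given as examples, and the shares over all matched promoters follow them. Each stretch runs from 10 bases before the RefSeq start to 20 from the start on (GRCm38.p6, the assembly of mm10). Capitals mark the longest run of C and T. Rpl27a, Rpl35, Rpl15 and Rpl7a were chosen as the ribosomal starts with the longest runs, so the contrast among the examples follows partly from that choice. Other ribosomal starts had short runs, such as Rps3 with 2 bases and Rpl26 with 3, and the respiratory gene Cox7c had a run of 11. Rps6 and Rps18 carried TLX peaks, and Ndufb5, Cox8a and Ndufs3 are respiratory genes with TLX in both cultures.
Rpl27a: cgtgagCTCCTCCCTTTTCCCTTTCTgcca
Rpl35: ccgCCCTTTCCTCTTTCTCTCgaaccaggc
Rpl15: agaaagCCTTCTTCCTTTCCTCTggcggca
Rpl7a: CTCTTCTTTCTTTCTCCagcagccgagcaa
Rps6: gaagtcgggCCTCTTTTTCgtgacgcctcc
Rps18: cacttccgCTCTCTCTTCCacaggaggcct
Ndufb5: ccccaCTTCCTTCCgtggccggtgtagcca
Cox8a: aaataCTTCCggctcgggcgtccggcaact
Ndufs3: gcacaTTTCCacttccggtccgtgcccttg
At the 6 ribosomal genes and at Ndufb5 the start lay inside the run, whereas at Cox8a and Ndufs3 the run of 5 bases ended just before it. RefSeq promoters, of 250 bases before to 50 after a start, were matched for 60 of 80 ribosomal genes (72 promoters) and 59 of 73 respiratory genes (61 promoters). Within 20 bases of the start the longest run of C and T had a median of 7 bases in ribosomal promoters, 5 in respiratory promoters and 5 in all 21263 protein-coding promoters. A run of at least 8 stood in 31 of 72 ribosomal promoters, 43.1% (31.4 to 55.3), in 7 of 61 respiratory promoters, 11.5% (4.74 to 22.2), and in 15.8% of all promoters. With 1 promoter per gene the run stood at 28 of 60 ribosomal genes, 46.7% (33.7 to 60), and 6 of 59 respiratory genes, 10.2% (3.82 to 20.8). Median GC content was 57.3% in either family, 56.3% in all promoters and 61% in those of genes with H3K27ac in NSC. Median CpG numbers per promoter were 21 in ribosomal and 19 in respiratory promoters, 13 in all and 21 in those of genes with H3K27ac in NSC.

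Acetylation was nearly universal at ribosomal protein genes in both cultures. An H3K27ac peak lay within 1 kb of a gene end at 76 of 80 genes in NSC, which is 95% (87.7 to 98.6) against 52.2% of all protein-coding genes. In BTSC the count was 77 of 80, or 96.2% (89.4 to 99.2), against 51.7%. All 30 small subunit genes and the 3 stalk genes Rplp0, Rplp1 and Rplp2 had a peak in either list, as had 43 of 47 other large subunit genes in NSC and 44 in BTSC. The 76 genes with a peak in NSC also had one in BTSC, against 49.6% of all genes with a peak in both lists. No ribosomal gene was in the NSC list only, against 2.62% of all genes, and 1 was in the BTSC list only, against 2.09%. In neither list were 3, against 45.7%.

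Respiratory chain genes had H3K27ac at 64 of 73 genes in NSC, 87.7% (77.9 to 94.2), and at 66 of 73 in BTSC, 90.4% (81.2 to 96.1). Every one of the 7 core subunits of complex I, the 32 other genes with Nduf symbols that are not assembly factors, the 8 assembly factors and the 8 genes of complex III had a peak in both lists. All genes without a peak belonged to complex IV, where 9 of 18 had one in NSC and 11 of 18 in BTSC. Genes of the mitochondrial ribosome, a comparable housekeeping family of 78 genes, had H3K27ac at 75 in NSC and 74 in BTSC, so the high share is not particular to the ribosomal and respiratory families.

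**Figure D1:**
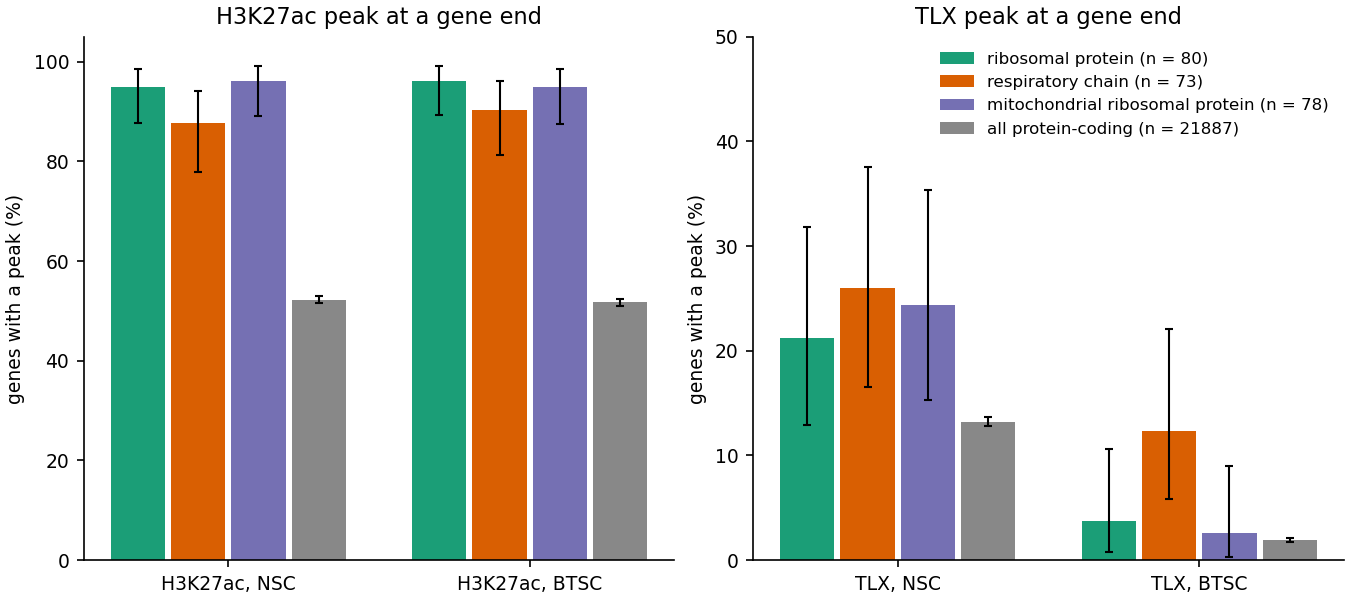
Share of genes (%, vertical axis) with a peak within 1 kb of a gene end in each of the 4 lists, for 80 ribosomal, 73 respiratory and 78 mitochondrial ribosomal protein genes and all 21887 protein-coding genes; bars start at 0 and error bars are exact 95% intervals for counting error. H3K27ac lay at 87.7% or more of the 3 families, and respiratory genes had the tallest bar for TLX in BTSC, at 12.3%.

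Of the 10 genes with H3K27ac in neither list, 7 were paralogs used in particular tissues. In complex IV these were Cox4i2, known as the isoform of lung and of oxygen sensing cells, Cox6a2 and Cox7a1, isoforms of heart and skeletal muscle, and Cox6b2 and Cox7b2, isoforms of testis. In the ribosome they were Rpl10l and Rpl39l, which take the place of Rpl10 and Rpl39 in male germ cells. None of these 7 genes had a peak anywhere in the gene or within 1 kb of it in either list. Of the 12 members fixed as paralogs of restricted use, 3 had H3K27ac in NSC and 5 in BTSC, against 74 of 76 other ribosomal genes in NSC and 75 in BTSC, and 63 of 65 other respiratory genes in both. Rpl32l, which is not among the 12, likewise had no peak in or near the gene in either list.

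Some of these paralogs did carry the mark. Rps27l, an isoform of Rps27 known as a target of p53, had a strong peak, of fold 18.8 in NSC and 14.1 in BTSC, where fold is the authors' enrichment over the background of their peak caller. Ndufa4l2, a paralog of Ndufa4 induced by low oxygen, had a peak of fold 6.46 and 4293 bp in NSC and one of fold 8.98 and 4794 bp in BTSC. Rpl3l, the muscle isoform of Rpl3, had the lowest fold of the ribosomal genes with a peak in both lists, at 2.89 in NSC and 3.33 in BTSC.

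Cox8b and Cox8c were the 2 respiratory genes with H3K27ac in the BTSC list only, and their peaks were weak. They make up 2.74% (0.334 to 9.55) of the 73 genes, near the 2.09% of all genes in this class. In the NSC list only were 0 respiratory genes, against 2.62% of all genes. Cox8b, an isoform of heart, muscle and brown fat (chromosome 7, 140898942 to 140900446), had no peak in NSC and in BTSC a peak of 2210 bp with a fold of 3.61 and a −log10 q of 5.16. The BTSC peak at Cox8c, an isoform of testis, was 421 bp wide with a fold of 2.54 and a −log10 q of 2.01. Rpl17 was the ribosomal gene of the BTSC list only, but here the class follows the gene model: an NSC peak of fold 11.6 lay inside the gene at chromosome 18, 75000164 to 75002207, and the BTSC peak of fold 7.46 reached 63 bp into the window at the gene end.

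The same holds for Cox5a and Cox7a2, the remaining 2 members counted as without H3K27ac, which are subunits of complex IV in all tissues. The RefSeq span of either gene reaches beyond the start of its curated transcript, so the window at the gene end missed that start. At the RefSeq start of Cox5a (chromosome 9, 57521232) lay a peak of fold 18.8 in NSC and 14.6 in BTSC. At that of Cox7a2 (chromosome 9, 79759853) lay peaks of fold 12.1 and 11.9. With these starts counted, each of the 65 respiratory genes that are not paralogs of restricted use had H3K27ac at a gene end or RefSeq start in both lists.

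**Figure D2:**
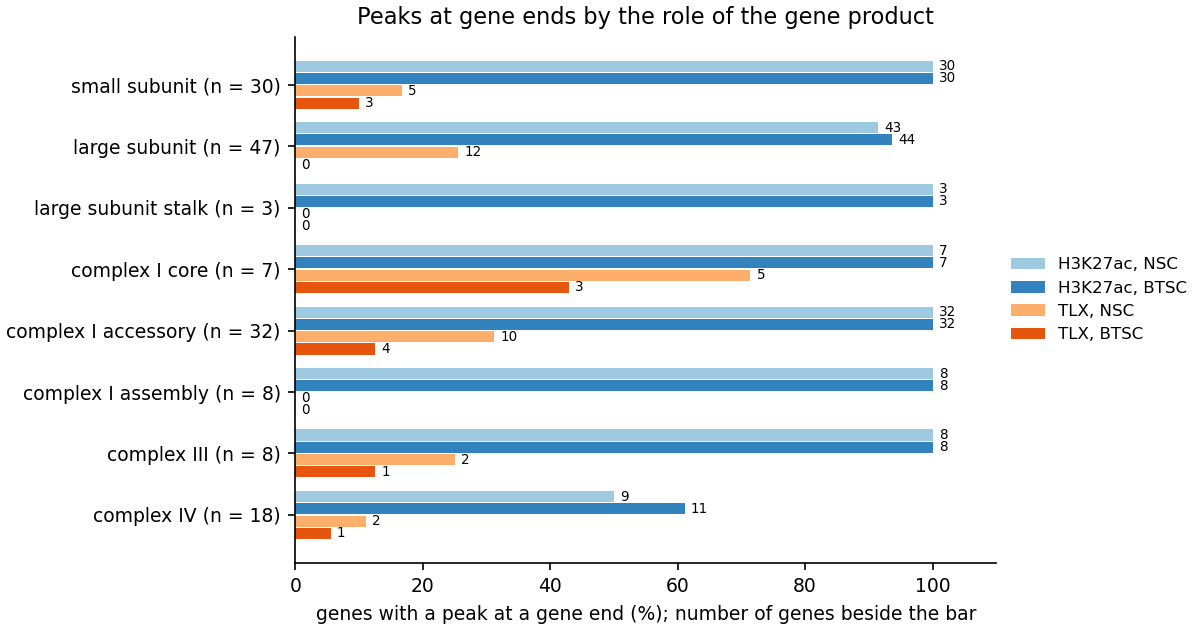
Share of genes (%, horizontal axis) with a peak at a gene end by the role of the gene product, with the number of genes beside each bar; n is the number of genes in the class. H3K27ac reaches 100% in 6 of 8 classes in both cultures and is lowest in complex IV, and TLX is highest among the 7 core subunits of complex I.

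Acetylated stretches and their enrichment at gene ends had medians somewhat above those of all genes with a peak. Within 1 kb of the gene ends, the ribosomal genes with a peak had a median of 1840 covered bp in NSC and 1872 in BTSC. The respiratory genes had 1620.5 and 1744, and all genes with a peak 1577 and 1591. Covered bp depends on gene length: at short genes 1 peak can fill the windows of both ends, as at Rps15 with 3314 bp in NSC. At long genes a peak at 1 end covers at most 2001 bp. How far the medians follow gene length was not tested. The median fold of the strongest peak was 11.3 in NSC and 10.3 in BTSC for ribosomal genes, 11.1 and 10.1 for respiratory genes, and 9.64 and 9.36 for all genes. Among ribosomal genes the highest folds were 20.8 at Rpl21 in NSC and 21.5 at Rpl7 in BTSC. Ndufb1, an accessory subunit of complex I, led the respiratory genes in NSC with 23.8 and had 25.5 in BTSC. At the other end, the lowest in NSC were assembly factors of complex I: Ndufaf1 had 4.17, Ndufaf7 5.01, Ndufaf4 5.18 and Ndufaf2 5.23.

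Covered length in the wider surroundings, within 25 kb of the gene ends, was greater in BTSC at most members, as it was over all genes. Of the 76 ribosomal genes with peaks in both lists, 47 (61.8%) had more covered bp in BTSC, with a median difference of 375 bp. For respiratory genes this was 40 of 64 (62.5%) with a median of 164.5 bp, and for all genes 61.7% with a median of 306 bp. Within 1 kb the medians were 5 bp, 0 bp and 0 bp. These shares were near that of all genes.

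Single genes stood further from the diagonal. Toward BTSC the largest differences among ribosomal genes were those of Rpl27 (13429 bp in NSC and 19898 bp in BTSC), Rps10 (12844 and 18371 bp), Rpl31 (2044 and 7115 bp), Rpl7 (3004 and 7814 bp) and Rpl27a (12821 and 16651 bp). Rpl7 and Rpl31 lie on chromosome 1, which held 6.28% of H3K27ac peaks in NSC and 8.42% in BTSC. Among respiratory genes the large differences included those of Cox4i1, the ubiquitous isoform of subunit 4 (7544 and 13054 bp), Cox5a (6353 and 11606 bp), Ndufaf6 (3149 and 7454 bp) and Ndufs8 (9827 and 13935 bp).

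Toward NSC the largest differences among ribosomal genes were those of Rpl23 (12147 bp in NSC and 9226 bp in BTSC), Rpl23a (27035 and 24511 bp), Rps2 (9764 and 7550 bp), Rpl7a (11237 and 9334 bp) and Rpl3l (6012 and 4163 bp). Respiratory genes with more in NSC were Ndufc2 (19341 and 15062 bp), Ndufb10 (8079 and 6111 bp), Ndufa6 (8316 and 6430 bp), Ndufaf2 (6037 and 4569 bp) and Ndufa13 (6434 and 5062 bp). Rps2, Ndufb10 and Rpl3l are neighbours on chromosome 17 between 24718121 and 24736143, so their 3 values rest largely on the same peaks. These lengths have no replicates behind them.

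**Figure D3:**
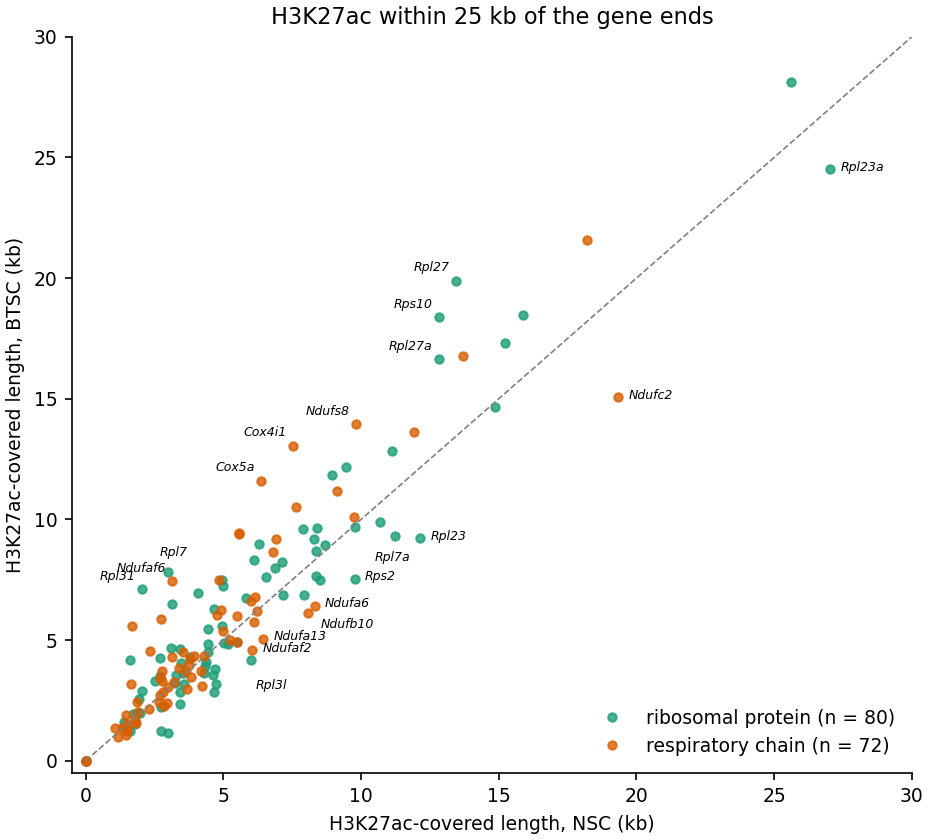
H3K27ac-covered length (kb) within 25 kb of the gene ends in NSC (horizontal) and BTSC (vertical), 1 point for each of 80 ribosomal and 72 respiratory genes, with the line of equal length dashed and large differences named. Points follow the line with more above it than below, and of the genes drawn Rpl27 lies farthest above, at 13429 bp in NSC and 19898 bp in BTSC.

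TLX lay at the ends of 17 ribosomal genes in NSC, 21.2% (12.9 to 31.8), against 13.2% of all protein-coding genes. In BTSC it lay at 3, or 3.75% (0.780 to 10.6), against 1.90%. Of the 2894 protein-coding genes with TLX in NSC, 2864 also had H3K27ac, so the share among genes with H3K27ac is the closer comparison: 22.4% (13.6 to 33.4) of such ribosomal genes had TLX in NSC against 25% of all such genes, and 3.90% (0.811 to 11.0) in BTSC against 3.67%. Ribosomal protein genes therefore stood near the level of acetylated genes at large in both cultures. By subunit, 12 of 47 large subunit genes other than the stalk had TLX in NSC and 0 in BTSC, and 5 of 30 small subunit genes had it in NSC and 3 in BTSC.

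The 3 ribosomal genes with TLX in both lists all encode small subunit proteins. Rps6, whose protein is phosphorylated by S6 kinases when growth signals are active, had a peak at chromosome 4, 86857068 to 86857845 in NSC with a fold of 5.93 and one at 86857149 to 86857619 in BTSC with a fold of 5.95. At Rps19, the gene most often mutated in human Diamond-Blackfan anaemia, the folds were 5.35 in NSC and 4.81 in BTSC, and the summits of both lists lay at the same base, chromosome 7, 24884357. At Rps14, haploinsufficient in a human myelodysplastic syndrome, they were 6.69 and 5.72, with summits 201 and 135 bp from the gene end on chromosome 18. No ribosomal gene had TLX in the BTSC list only, against 0.270% of all genes, and 63 had it in neither list (86.5% of all genes).

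In NSC the highest TLX fold of the family was 8.03 at Rps18, with its summit at −252 bp from the start, in a peak that also lies within 1 kb of an end of Vps52. Rpl27 followed with 6.69, and then came, after the genes already given, Rpl3 with 5.16, Rpl10a with 4.76, Rpl7 with 4.63, Rps20 with 4.59 and Rpl29 with 4.40. All 7 were in the NSC list only, as were 14 of 80 ribosomal genes (17.5%) against 11.6% of all genes. The median fold of the 18 ribosomal peaks in NSC was 4.49, and that of the 2546 TLX peaks at gene ends was 4.52. Rpl4 was the member with 2 TLX peaks in NSC, of folds 3.63 near its start and 3.25 near its far end.

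Respiratory chain genes had TLX at 19 of 73 genes in NSC, 26.0% (16.5 to 37.6), and at 9 of 73 in BTSC, 12.3% (5.80 to 22.1), against the 1.90% of all genes in BTSC. Among genes with H3K27ac the shares were 29.7% (18.9 to 42.4) against 25% in NSC and 13.6% (6.43 to 24.3) against 3.67% in BTSC. In both lists TLX lay at 8 of the 73, against 1.63% of all genes, and in the BTSC list only at 1, Ndufa13. The NSC share was near that of acetylated genes at large, and in BTSC the lower bound of the interval was above their share. The TLX lists differ in length, with 7458 peaks in NSC and 1436 in BTSC, so these shares do not set the cultures apart. Cut to 1436 peaks, the NSC list also held a larger share of respiratory genes than the 1.39% of all genes. The counts are in the closing section. The mitochondrial ribosome had 19 of 78 in NSC but 2 of 78 in BTSC, and a list of complexes II and V with cytochromes c and c1, 21 genes in all, had 8 and 0. Chromosome 1, which held 20.7% of all BTSC TLX peaks and 6.18% of those in NSC, carried 3 of the 9 genes. Outside it the BTSC count was 6 of 68, 8.82% (3.31 to 18.2), against 1.49% of all genes, and on it 3 of 5, against 8.89% of 1204 genes. Among genes with H3K27ac, the closer comparison, it was 6 of 61 outside chromosome 1, 9.84% (3.70 to 20.2), against 2.89%. On chromosome 1 the share of all such genes was 16.1%. At a −log10 q of at least 5 the BTSC count over all chromosomes was 6 of 73, against 1.36% of all genes, with or without H3K27ac.

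By symbol, TLX lay at 5 of 7 core subunit genes of complex I in NSC, 71.4% (29 to 96.3), and 3 in BTSC, 42.9% (9.90 to 81.6). Of all genes with H3K27ac, 25% and 3.67% had TLX. It lay at 10 and 4 of 32 other Nduf genes, 31.2% (16.1 to 50) and 12.5% (3.51 to 29). These 32 include Ndufa4, now known as a complex IV subunit, and its paralog Ndufa4l2. For assembly factors the counts were 0 and 0 of 8. TLX lay at 2 and 1 of 8 complex III genes, and at 2 and 1 of 18 genes with Cox symbols. The core subunits, which make up the arm that holds the flavin and iron-sulfur clusters, included Ndufs1 and Ndufs3 with TLX in both lists and Ndufs8 and Ndufv2 with TLX in the NSC list only. Ndufs1 lies on chromosome 1, and the BTSC peaks of Ndufs1 and Ndufs3 also lie within 1 kb of another gene's end.

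Ndufs1, encoding the largest subunit of complex I, had the strongest BTSC peak of the family. Its fold was 8.90 in NSC (chromosome 1, 63176601 to 63177360) and 10.6 in BTSC (63176318 to 63177394), where it ranked 42 of 1436 peaks by q. Ndufb5, an accessory subunit of the membrane arm, had the strongest in NSC, with a fold of 11.1 and rank 210 of 7458 (chromosome 3, 32736462 to 32737179), and a fold of 8.24 and rank 141 in BTSC. Ndufb3, also of the membrane arm, had folds of 7.28 and 6.24, and Cox8a, the ubiquitous isoform of subunit 8 of complex IV, 6.59 and 6.27. Ndufs3 had 4.68 in NSC and 5.95 in BTSC.

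A further 3 BTSC peaks were among the weakest of that list. They lay at Ndufa4, now known as a subunit of complex IV, with a fold of 7.46 in NSC and 3.66 in BTSC, at Uqcrh, the hinge protein of complex III, with 5.34 and 3.34, and at Ndufa13, also known as a regulator of STAT3, with 3.89 in BTSC and no peak in NSC; the Ndufa13 summit lay at −1172 bp from the RefSeq start and 634 bp from the gene end. Their ranks by q in BTSC were 1400, 1423 and 1352 of 1436. Further genes among the 10 highest NSC folds of the family were Ndufa11 with 7.27, Ndufv2 with 6.69, Ndufa9 with 5.81 and Ndufb1 with 5.35, all in the NSC list only, like 11 of 73 respiratory genes (15.1%). The median fold of the respiratory TLX peaks was 5.34 in NSC against 4.52 for all peaks at gene ends, and 5.95 in BTSC against 4.81.

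**Figure D4:**
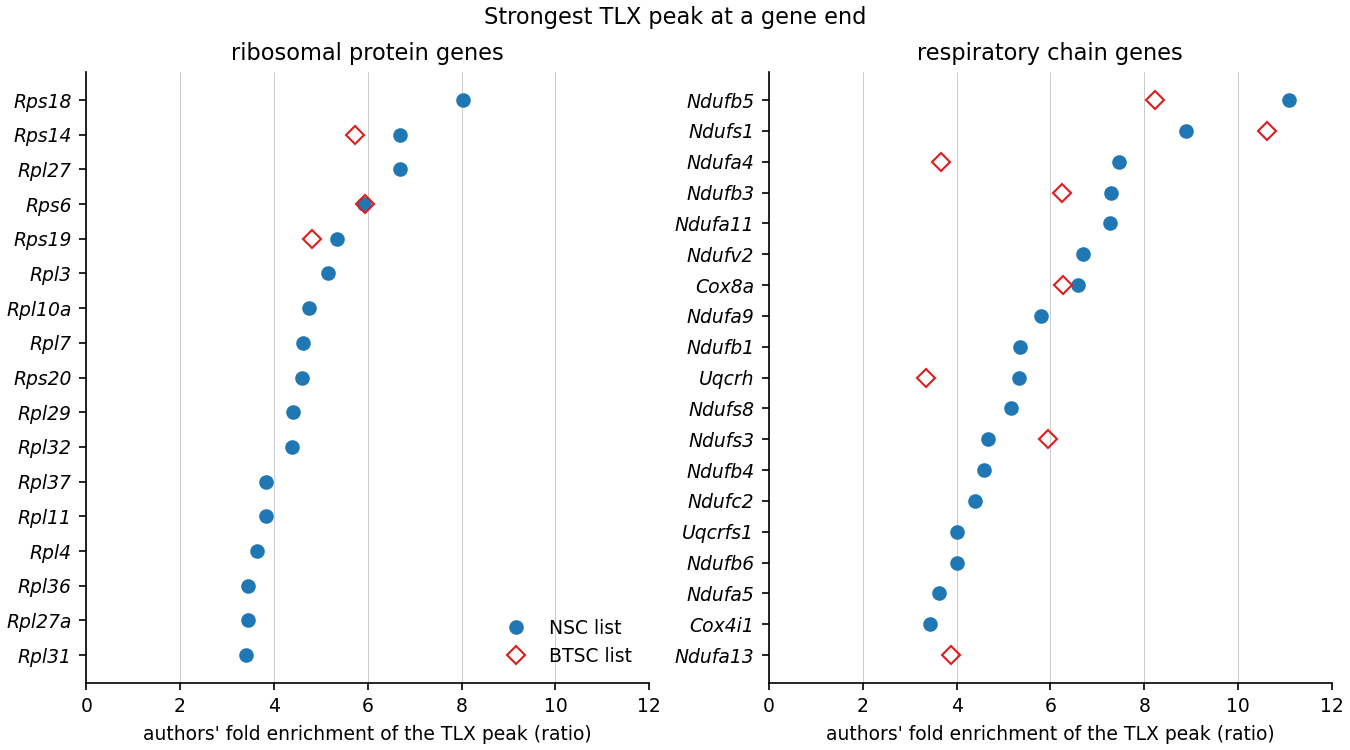
The authors' fold enrichment (ratio, horizontal axis) of the strongest TLX peak at the ends of 17 ribosomal (left) and 19 respiratory (right) genes with a peak; circles are the NSC list, open diamonds the BTSC list, and a missing symbol means that no peak was called. Diamonds appear at 3 ribosomal and 8 respiratory genes, and the highest circle is that of Ndufb5 at 11.1.

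Many of the respiratory peaks lay between neighbouring genes, so which gene they belong to cannot be told apart. In NSC the TLX peak of 12 of 19 respiratory genes, 63.2% (38.4 to 83.7), also lay within 1 kb of an end of another protein-coding gene, and in BTSC that of 8 of 9, 88.9% (51.8 to 99.7). For ribosomal genes this was 5 of 17 and 0 of 3, and for all genes with TLX 28.1% and 30.6%. The neighbours in BTSC included Eef1b2 at Ndufs1, Mrpl47 at Ndufb5, Fam126b at Ndufb3, Kbtbd4 at Ndufs3, Phf14 at Ndufa4, Lrrc41 at Uqcrh and Tssk6 at Ndufa13; Cox8a had none. Close neighbours are common in this family: 42 of 73 respiratory genes (57.5%) and 44 of 78 mitochondrial ribosomal genes (56.4%) had another gene's end within 1 kb of their own, against 29 of 80 ribosomal genes (36.2%) and 24.8% of all genes. Among respiratory genes with such a neighbour 8 of 42 had TLX in BTSC, 19% (8.60 to 34.1), against 3.19% of all genes with one. Without such a neighbour it was 1 of 31 against 1.47%. These shares are over genes with or without H3K27ac, which lay at 90.4% of respiratory and 51.7% of all genes in BTSC. The closer comparison, among genes with H3K27ac, was not made for neighbours.

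TLX summits stood close to the start of transcription. In NSC, 10 of 11 ribosomal and 16 of 16 respiratory peaks at genes of known strand were nearer to the start than to the far end, as were 93.0% of 2398 such peaks at all genes. The summit lay within 250 bp of a RefSeq start in 8 of 11 ribosomal and 12 of 16 respiratory peaks, against 49.9% of all. Its median position was 135 bp after the start for ribosomal and 78.5 bp after it for respiratory genes, against 74 bp for all genes. In BTSC, 2 of 2 and 4 of 7 were within 250 bp, against 53.7%. Every member's TLX peak overlapped an H3K27ac peak of the same culture. This is not particular to the members: H3K27ac lay at a gene end of 2864 of all 2894 genes with TLX in NSC. In BTSC it lay at a gene end of all 415.

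The stretches upstream of 3 genes with TLX in both cultures are given from 250 bases to 1 base before the RefSeq start, in the direction of transcription; the TLX summits lay inside each of them. The following letters were searched on both strands in all promoters: AAGTCA (the core bound by TLX), CCGGAAG (ETS factors such as GABPA), ATGGCG (core of the YY1 site), GCATGCG (core of the NRF1 site), GGGCGG (SP1), CACGTG (E box) and TATAAA (bound by TBP and known as the TATA box). Capitals mark matches in either direction.
Rps6 (chr4:86857368-86857617, minus strand): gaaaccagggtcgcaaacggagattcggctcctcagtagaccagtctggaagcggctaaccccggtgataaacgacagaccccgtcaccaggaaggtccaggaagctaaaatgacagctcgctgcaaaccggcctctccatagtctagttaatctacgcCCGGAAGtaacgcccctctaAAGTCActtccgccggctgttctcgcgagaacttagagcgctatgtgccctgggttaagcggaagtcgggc
Rps19 (chr7:24884342-24884591, plus strand): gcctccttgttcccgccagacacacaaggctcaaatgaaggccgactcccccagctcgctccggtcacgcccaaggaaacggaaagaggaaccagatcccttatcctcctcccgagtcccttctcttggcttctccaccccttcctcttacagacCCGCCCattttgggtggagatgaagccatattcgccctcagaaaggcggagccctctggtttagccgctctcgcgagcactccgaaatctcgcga
Ndufb5 (chr3:32736813-32737062, plus strand): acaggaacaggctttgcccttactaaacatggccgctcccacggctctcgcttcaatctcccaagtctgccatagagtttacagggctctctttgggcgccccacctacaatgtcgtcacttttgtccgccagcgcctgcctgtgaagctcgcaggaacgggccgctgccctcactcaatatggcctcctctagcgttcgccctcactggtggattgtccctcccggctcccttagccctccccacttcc
At Rps6 the TLX core ran from position −71 to −66 relative to the start and the ETS letters from −91 to −85, while the summits lay at −30 in NSC and −11 in BTSC. At Rps19 the SP1 letters, on the reverse strand, ran from −95 to −90 and the summits of both lists lay at −235. The Ndufb5 stretch held none of the letters, with summits at −218 in NSC and −131 in BTSC.

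The TLX core had intervals in both families that held its share of all promoters. It stood in 8 of 72 ribosomal promoters, 11.1% (4.92 to 20.7), and 10 of 61 respiratory promoters, 16.4% (8.15 to 28.1), against 13.2% of all and 10.9% of those of genes with H3K27ac in NSC. Promoters of genes with TLX in NSC held it in 3 of 13 ribosomal and 3 of 17 respiratory cases, and in 11.8% over all genes with TLX. The ETS letters stood in 34.7% (23.9 to 46.9) of ribosomal and 18.0% (9.36 to 30) of respiratory promoters, against 11.6% of all and 17.9% of acetylated ones, and only the ribosomal interval lay above both shares. The YY1 core stood in 30.6% (20.2 to 42.5) and 29.5% (18.5 to 42.6), against 10.9% and 15.4%. On the forward strand alone it stood in 9.72% (4 to 19) of ribosomal and 26.2% (15.8 to 39.1) of respiratory promoters. The forward shares were 6.39% of all and 9.42% of acetylated promoters, so only the respiratory interval lay above both. The NRF1 core stood in 6.94% and 13.1% (5.84 to 24.2), against 4.44% and 6.63%. SP1 letters stood in 56.9% (44.7 to 68.6) of ribosomal and 45.9% (33.1 to 59.2) of respiratory promoters, against 46.2% of all and 63.5% of acetylated ones, so the respiratory interval lay below the acetylated share. The E box stood in 11.1% (4.92 to 20.7) and 4.92% (1.03 to 13.7), against 7.84% and 9.88%, and the TATA box in 9.72% (4 to 19) and 11.5% (4.74 to 22.2), against 12.6% and 6.97%. Overlapping promoters of 1 gene can hold the same site, so the intervals over promoters are too narrow. With 1 promoter per gene, an alternative chosen after seeing the data, the ETS letters stood at 23 of 60 ribosomal genes, 38.3% (26.1 to 51.8), against 11.9% of all genes and 19.1% of acetylated ones. The YY1 core then stood at 17 of 60 ribosomal genes, 28.3% (17.5 to 41.4), and 17 of 59 respiratory genes, 28.8% (17.8 to 42.1), against 11.2% and 16.5%. These matches describe the letters in the window and show no binding.

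**Figure D5:**
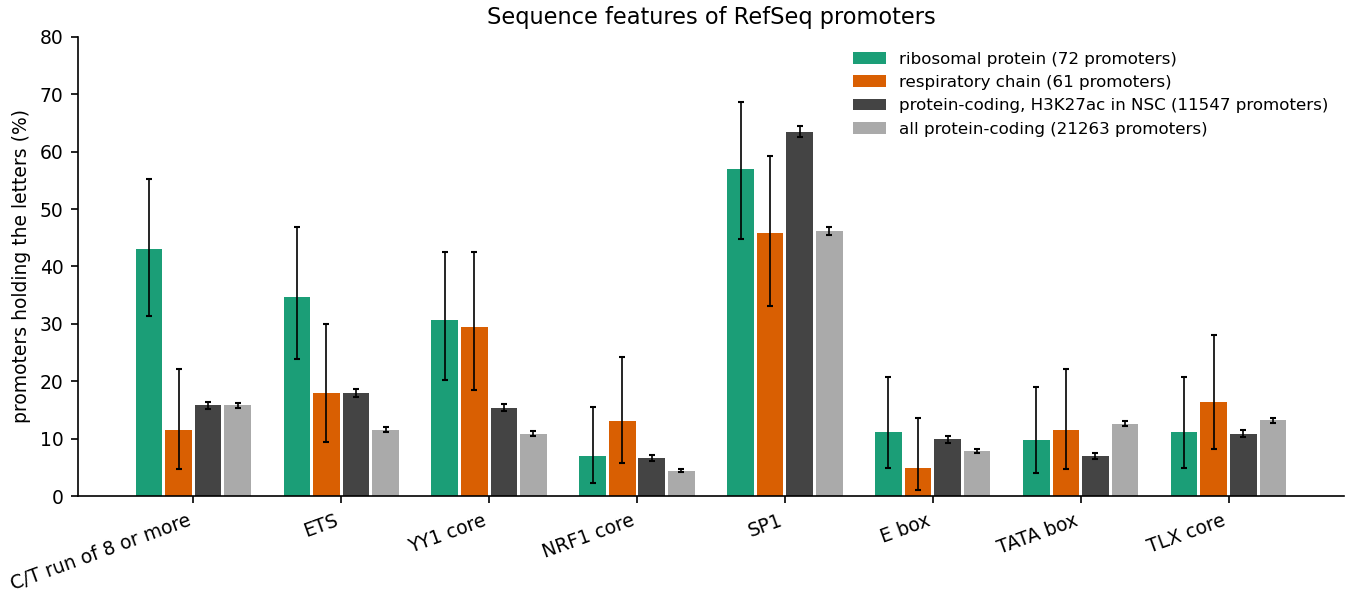
Share of RefSeq promoters (%, vertical axis) holding each set of letters on either strand, or a run of at least 8 C and T bases within 20 bases of the start, with exact 95% intervals for counting error. Ribosomal promoters stand out for the C and T run (43.1%) and the ETS letters (34.7%), and neither family for the TLX core. Both stand out for the YY1 core on either strand. On the forward strand alone only respiratory promoters do, as 7 of the 22 ribosomal promoters with these letters hold them in that direction.

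Other genes of the same machinery were counted alongside. All 6 ribosome genes outside the rule, all 21 genes of complexes II and V and cytochromes c and c1 (Cyc1, a complex III subunit with a symbol outside the rule), all 12 assembly factors of complex IV, all 10 translation factors and all 9 regulators of ribosomal or mitochondrial genes had H3K27ac at a gene end in both lists. Of all protein-coding genes 49.6% had H3K27ac in both lists. TLX lay in NSC at 3 of 6, 8 of 21, 3 of 12, 4 of 10 and 5 of 9 of them in that order, and in BTSC at 1 gene only, the elongation factor gene Eef1b2, by the peak it shares with Ndufs1. Over all protein-coding genes with H3K27ac the TLX share was 25% in NSC and 3.67% in BTSC, and over all protein-coding genes 13.2% and 1.90%. The groups are too small to be set apart from these shares. The NSC genes included Rack1 with a fold of 4.21, Atp5g3 of the ATP synthase ring with 6.12, Cycs encoding cytochrome c with 4.59, Eef2 with 5.55, and the regulator genes Gabpa with 4.70, by a peak it shares with Atp5j of the ATP synthase, Yy1 with 4.40, Nrf1 with 4.02 and Myc with 3.44. Of the mitochondrial ribosome, Mrpl47, by the peak it shares with Ndufb5, and Mrpl39, with folds of 5.93 and 5.72, had TLX in both lists.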

How the data were processed

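According to the protocols in the labels, cells were crosslinked in 1% formaldehyde (10 min, then 125 mM glycine), fragments measured about 200 bp, each precipitation took 2 ug of antibody, and sequencing read 50 bp from both ends. Build mm10 and the tools Bowtie, ChIPseeker and bcl2fastq (2.17.1.14) come from names per the submitters' processing notes. The sources used here give no peak caller, no settings and no rule for reads with several matches, which bears on ribosomal genes because these have many processed pseudogenes. The authors deposited 1 peak list per library, narrow for TLX and broad for H3K27ac. The deposited lists hold a fold (a ratio over background), a −log10 p-value and −log10 q-value, and a whole-number score, the −log10 q-value times 10 without its decimals.

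Genes were RefSeq protein-coding genes of GRCm38.p6. A gene had a peak when 1 bp or more of it lay within 1 kb of a gene end. Strand and starts came from the RefSeq promoter table, which covers only some of the genes. Samples were grouped by the labels, and alternatives varied the q threshold, window, summit rule, list length, chromosomes, gene sets and motif strand. The members, gene lists and the rule for named genes were chosen with earlier results of these data known. The rule names genes with TLX in BTSC, the 10 highest NSC folds per family, genes differing in H3K27ac class, the 5 largest differences in covered length per family and direction, genes without H3K27ac, and pathway genes with TLX in both lists. Further genes were named after their values were seen, and the run length of 8 was chosen later. Some genes that the rules name are not reported here, but group counts include them. Overlap code was tested on simulated peaks. Python 3.11.15, pandas 2.3.3 and scipy 1.17.1 were used.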

Additional observations from a re-analysis of the deposited data

How the results depend on the processing

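Of 308 recomputed values 256 stayed within 1.5 times (counts) or within their interval, and 52 did not; for those 52 the cause was not tested beyond the construction of each alternative. For classes of 1 list only, the shares of all genes under these alternatives are not given here. With a −log10 q of at least 5, TLX in NSC lay at 11 ribosomal genes, against 10.4% of all genes, and 8 were in the NSC list only. H3K27ac in the BTSC list only lay at 2 ribosomal and 1 respiratory genes, and in the NSC list only at 1 respiratory gene. TLX in the BTSC list only lay at 0 genes of either family. In windows of 2.5 kb the BTSC-only counts were 0 ribosomal genes for H3K27ac, 1 ribosomal and 2 respiratory for TLX, and the covered medians were 2460 and 2289 bp (ribosomal, NSC and BTSC) and 1886 and 1936 bp (respiratory). In windows of 0.5 kb no ribosomal gene (0) had H3K27ac in BTSC only, and all 4 medians were 1001 bp. Requiring the summit or midpoint in the window gave H3K27ac in NSC only at 5 ribosomal and 1 respiratory genes and in BTSC only at 2 ribosomal genes, and TLX in BTSC only at 2 respiratory genes. With lists cut to equal numbers of peaks (1436 for TLX), TLX in NSC lay at 3 ribosomal genes (1 in both lists, 2 in NSC only). A further 2 had it in BTSC only. It lay at 7 respiratory genes (5 in both lists, 2 in NSC only), and a further 4 had it in BTSC only. These NSC counts were 3.95% and 10.9% of the acetylated genes of each family. The share of all genes, with or without H3K27ac, was 1.39%. That is another denominator, and the share of all acetylated genes at this list length is not given. The setting of annotated starts only covers genes of known strand, which were 60 ribosomal, 59 respiratory and 17492 of all genes. There TLX in NSC lay at 10 ribosomal genes (8 in NSC only), against 12.6% of all such genes. H3K27ac lay at 1 ribosomal gene in NSC only and 0 in BTSC only, and at 1 respiratory gene in BTSC only. Without chromosomes 1 and 6, TLX in BTSC lay at 5 respiratory genes, 4 of them in both lists, against 1.46% of all genes. Without assembly factors and restricted paralogs, 0 respiratory genes had H3K27ac in BTSC only. Alternatives chosen after seeing the data were 3: 1 promoter per gene kept all 14 motif shares within their intervals, counting RefSeq starts as well gave 1 ribosomal gene with TLX in BTSC only, and counting peaks anywhere in the gene gave 1 likewise and 0 with H3K27ac in BTSC only. Covered medians within 25 kb were 4830 and 5602 bp (ribosomal) and 3801 and 4270 bp (respiratory). Over all genes with a peak they were 4508 and 5216 bp, so the respiratory medians lay below these. On the forward strand alone the ETS letters stood in 23.6% and 8.20% of ribosomal and respiratory promoters, SP1 in 29.2% and 31.1%, and the YY1 core in 9.72% of ribosomal ones. No paired analysis was possible because each group has 1 library and no test was made. Without read numbers, a missing peak cannot be told apart from low depth.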
